A study of Mus musculus with 219 samples.

Results

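Mouse 2-cell embryos made by intracytoplasmic sperm injection (ICSI) at the animal pole were compared with embryos made by ICSI at the equator of the oocyte. Ipsilateral ICSI places the sperm head on the side of the meiotic spindle (the labels write "isolateral"), whereas equatorial ICSI places it midway between the poles. Blastomeres with at least 9500 counted genes were kept where the sister met the same minimum, and the counts of both sisters were added, so that the embryo was the replicate. This left 21 ipsilateral and 13 equatorial embryos, 34 of the 55 2-cell embryos kept, out of 24 and 15 pairs before the minimum. A further 21 embryos from contralateral ICSI, opposite the spindle, entered the same fits. They shared in the filter, the scaling and the estimates of the spread between embryos and of the other terms. Further below they are compared with the ipsilateral embryos. The series holds 219 labelled samples, of which 194, from blastomeres and blastocysts, have a column of counts. Among ipsilateral and equatorial blastomeres, 5 fell below the minimum, the highest of them with 8886 counted genes, and the lowest above it had 9973.

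All embryos came from oocytes of the hybrid strain B6C3F1 and sperm of the outbred stock CD1, were cultured in KSOM medium with amino acids, and were taken at Theiler stage 2. In all groups the oocyte donors were primed with hormones, the sperm came from the same cryopreserved batch, and the 2-cell embryos were bisected mechanically. No treatment other than the site of ICSI set the groups apart, so every group carries the effects of ICSI itself and of this handling. The sex of the embryos is not in the labels. RNA of each blastomere was copied to full-length cDNA with a SMART-Seq kit and sequenced on an Illumina NovaSeq. The libraries came from 2 plates, with 13 ipsilateral and 11 equatorial embryos on plate 1 and 8 and 2 on plate 2. On a plate, each row of wells held 1 ICSI group, so position on the plate and site of ICSI cannot be told apart.

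The mouse embryo begins development with transcripts that the oocyte made and stored. Many of these are translated or degraded in the zygote and the 2-cell embryo, while the embryo's own genome is switched on, with its main wave at the 2-cell stage. A female embryo then carries an X chromosome from each parent and a male embryo only the maternal one, so that X-linked transcripts made by the embryo can differ between the sexes before the paternal X is silenced.

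The ipsilateral embryos had more counts than the equatorial ones. The added total was 1854034 in the lowest, 3050508 in the median and 3976094 in the highest ipsilateral embryo, and 1255481, 2179479 and 3030763 in the equatorial embryos (permutation test, adjusted p = 0.00393 over 10 tests of depth). Detected genes per blastomere, averaged over the sisters, were 12080 ± 610 (SD, n = 21) and 11461 ± 659 (SD, n = 13; permutation test, adjusted p = 0.0194). The order stayed after each blastomere was thinned to 360474 counts, with 11005 ± 542 against 10549 ± 534 detected genes (permutation test, adjusted p = 0.0295), and within plate 1 (permutation test, adjusted p = 0.0194 for the total and adjusted p = 0.00393 for detected genes). With 1 library per blastomere and no added standard, less RNA in a blastomere and a shallower library cannot be told apart. Both measures are therefore used below as covariates.

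Reads of Y-linked genes were unevenly spread. Added counts of Ddx3y, Eif2s3y and Uty, which lie on the part of the Y chromosome that males alone carry, were at most 5 in 36 of the 55 embryos and between 18 and 333, with a median of 84, in the other 19. A limit of 10 counts, set after the values were seen, separated them. By this limit 3 of 21 ipsilateral embryos (14.3%) had Y-linked reads, against 8 of 13 equatorial embryos (61.5%; Fisher's exact test, 2-sided, p = 0.00776). Within plate 1 the numbers were 2 of 13 and 7 of 11 (Fisher's exact test, p = 0.0327). Xist, the RNA that coats the silenced X chromosome in females, was counted in 29 of the 36 embryos without Y-linked reads and in 3 of the 19 with them. Kdm5d, a further Y-linked gene, was counted in every embryo, with 29 counts or more, and was not used. The groups thus differed in the share of embryos with Y-linked reads as well as in depth, and both are given beside the results.

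The share of all counts on X-linked genes followed the same division. It was 2.97% in the lowest, 3.62% in the median and 3.82% in the highest ipsilateral embryo, and 1.65%, 2.92% and 3.59% in the equatorial embryos. The groups overlapped, and the means of 3.55% ± 0.234 (SD, n = 21) and 2.92% ± 0.528 (SD, n = 13) differed (permutation test, p = 3.0e-05, adjusted p = 6.0e-05 over 8 tests). Among embryos without Y-linked reads the means were 3.63% ± 0.141 (n = 18) and 3.42% ± 0.0983 (n = 5), still apart by an exact permutation test (p = 0.00487, adjusted p = 0.0065). With Y-linked reads they were 3.09% (n = 3) and 2.61% (n = 8; exact permutation test, p = 0.0909). Equatorial embryo 67 had the lowest share and the most Y-linked counts. Without it the equatorial mean was 3.03% ± 0.380 (n = 12; permutation test, p = 8.0e-05).

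**Figure D1:**
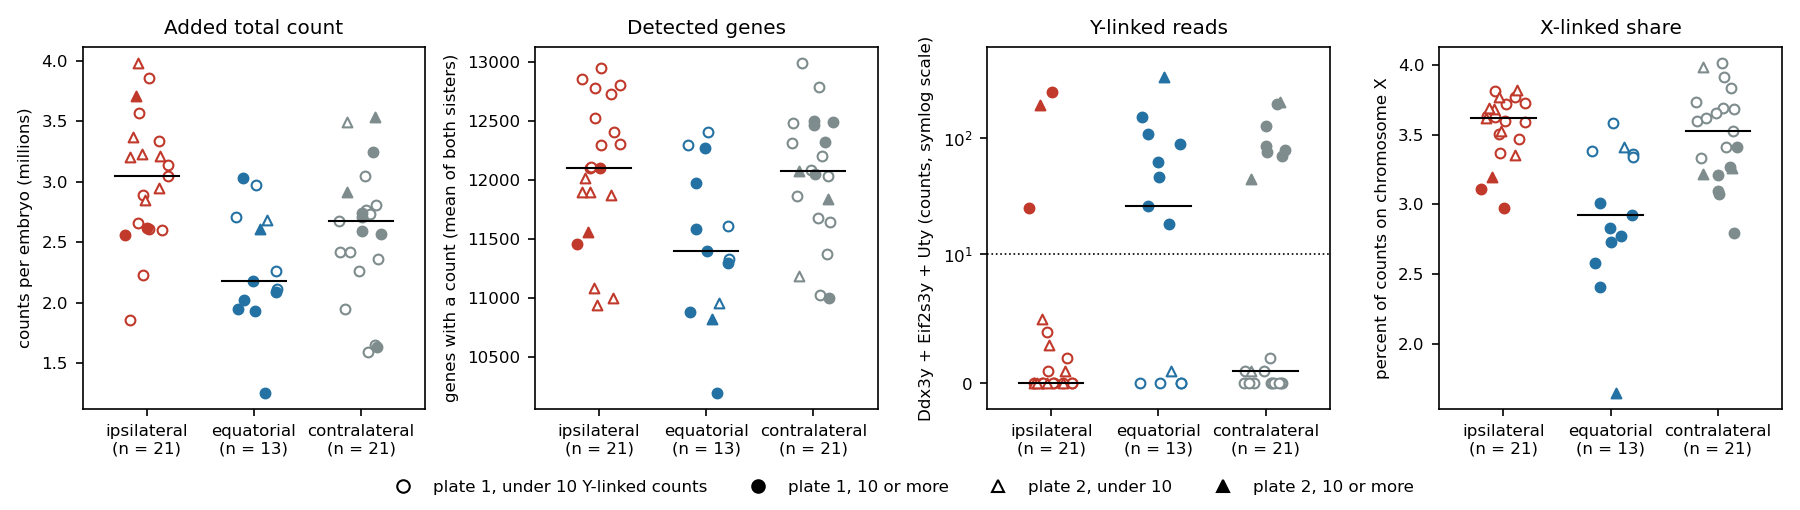
Added total count, detected genes per blastomere, added counts of 3 Y-linked genes (symlog axis, dotted line at 10 counts) and percent of counts on X-linked genes in each 2-cell embryo of the ipsilateral, equatorial and contralateral groups. Circles are plate 1, triangles plate 2, filled symbols embryos with 10 or more Y-linked counts, and bars medians. The ipsilateral median total of 3050508 lies above the highest equatorial total of 3030763, and 8 of 13 equatorial symbols are filled, against 3 of 21 ipsilateral ones.

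Markers of the oocyte and 2-cell embryo were present in both groups. The 20 such genes summed to a median of 6884 CPM (counts scaled to library size) in ipsilateral and 6625 CPM in equatorial embryos, and only H1foo, the oocyte linker histone, was higher among them. The 15 markers of cumulus and granulosa cells, which surround the oocyte, summed to 19.6, 46.5 and 71.6 CPM (lowest, median and highest) in ipsilateral and to 14.4, 54.4 and 84.9 CPM in equatorial embryos. Of these, 5 passed the filter on low counts and 0 were called by edgeR (0 with an unadjusted p under 0.05), while Amh and Inha were at 0 in both groups. Of 15 sperm markers 5 were tested and 0 called (1 unadjusted), and Odf2, which somatic cells also use in their centrioles, gave nearly the whole sum of 320.4 and 327 CPM. Of 14 markers of the later trophectoderm and inner cell mass, 10 were tested and 0 called (2 unadjusted).

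By edgeR's quasi-likelihood test with plate as a covariate, 874 of 13141 genes differed between ipsilateral and equatorial embryos at an adjusted p under 0.05 (6.65%). Of these, 451 were higher after ipsilateral ICSI (3.43% of the genes tested) and 423 were lower (3.22%). The median log2 fold change was 0.66 in the higher and -0.60 in the lower genes, so most changes were below 2-fold, which 22.6% of the higher and 8.51% of the lower genes exceeded. Before adjustment 2576 genes (19.6%) had a p under 0.05. Plate 1 alone gave 1108 genes, 637 higher and 471 lower. Plate 2, with 8 ipsilateral and 2 equatorial embryos, gave 0 by edgeR and 906 before adjustment. The number depended on single equatorial embryos. It was 610 without embryo 36, which had the lowest total, and 1188 without embryo 67, which had the lowest share of counts on X-linked genes.

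**Figure D2:**
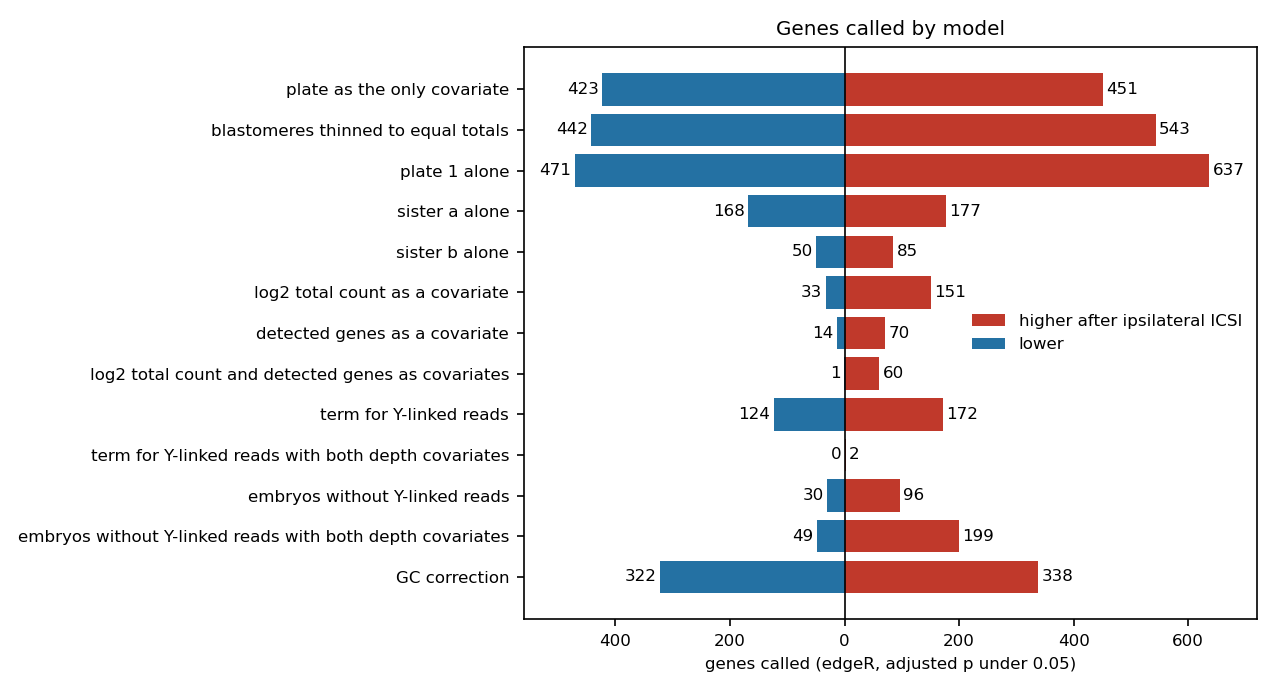
Number of genes called lower (bars to the left) and higher (bars to the right) after ipsilateral ICSI by edgeR, with 1 model or subset of embryos in each row. The 451 higher and 423 lower genes of the fit with plate fall to 151 and 33 with the log2 total count, to 70 and 14 with detected genes, and to 60 and 1 with both. With a term for Y-linked reads 172 of 296 are higher.

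Among the 12 named genes with the smallest p, the higher genes had roles in signalling, vesicle traffic, purine salvage, translation and the spindle checkpoint. Tank, an adaptor that regulates NF-kB and interferon signalling (chr2:61578585-61654171, GRCm38), stood at 85.03, 155 and 266 CPM in the lowest, median and highest ipsilateral embryo and at 29.4, 73.2 and 110 CPM in the equatorial ones. The distributions barely overlapped, since 19 of 21 ipsilateral embryos lay above the highest equatorial one (log2 fold change 1.20, standard error 0.17, edgeR adjusted p = 2.68e-05). Vta1, a cofactor of the ATPase that disassembles the ESCRT membrane-scission machinery, was at 116.2, 179 and 270 CPM against 42.8, 73.9 and 180 CPM. Its overlap was wider, with 10 ipsilateral embryos above the highest equatorial one, although 11 of 13 equatorial embryos lay below the lowest ipsilateral one (1.06, standard error 0.17, edgeR adjusted p = 0.000176). Mad2l1, a spindle checkpoint protein (chr6:66535390-66547220), was at 532, 651 and 944 CPM against 258, 409 and 674 CPM. All but 1 of the equatorial embryos lay below the lowest ipsilateral embryo (0.65, standard error 0.12, edgeR adjusted p = 0.000367). Eif2b1, a subunit of the exchange factor that recharges the initiation factor eIF2 (chr5:124570213-124579131), was at 167, 289 and 472 CPM against 70.3, 154 and 256 CPM. Here 15 ipsilateral embryos exceeded every equatorial one (0.94, standard error 0.17, edgeR adjusted p = 0.0003).

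Hprt, the purine salvage enzyme (chrX:52988137-53021659), was at 254, 339 and 453 CPM against 85.6, 193 and 277 CPM. It lies on the X chromosome, and 12 of 13 equatorial embryos were below the lowest ipsilateral one (0.82, standard error 0.14, edgeR adjusted p = 0.000176). Trappc2, a subunit of the TRAPP tethering complex of vesicle traffic, is X-linked too and was at 184, 269 and 421 CPM against 54.98, 136 and 269 CPM. The third X-linked gene of the group, Prr32, was at 8.47, 71.1 and 122.5 CPM against 4.73, 24.5 and 51.2 CPM, with 17 ipsilateral embryos above all equatorial ones. In the fit with the term for Y-linked reads the log2 fold changes of these 3 were 0.68, 0.82 and 1.70, all with an edgeR adjusted p under 0.05. Cfap300, a protein of motile cilia, had the largest autosomal change of the 12, at 25.8, 83.6 and 182 CPM against 12.03, 34.1 and 62.9 CPM (1.30, standard error 0.22, edgeR adjusted p = 0.000208). Dazap2, a partner of the RNA-binding protein DAZ, had the smallest, at 436, 583 and 800 CPM against 362, 429 and 525 CPM (0.42, standard error 0.08, edgeR adjusted p = 0.000387). Its groups were nonetheless well apart, with 17 ipsilateral embryos above the highest equatorial one. Triqk and Tmem243 were higher by 0.70 and 0.81. Ighg2b, named for an immunoglobulin constant region, was higher by 0.97, but it belongs to a family of near-identical genes between which the counting could split reads.

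The 12 lower genes included regulators of cell survival, ubiquitin transfer and chromatin. Bcl2l1, the anti-apoptotic protein Bcl-xL, stood at 56.7, 101.9 and 159 CPM in ipsilateral and at 126.96, 186 and 382 CPM in equatorial embryos. Of the ipsilateral embryos 17 lay below the lowest equatorial one (-1.04, standard error 0.17, edgeR adjusted p = 0.000176). Cdv3 separated the groups most, at 498, 602 and 769 CPM against 728, 833 and 1481 CPM, with 20 of 21 ipsilateral embryos below every equatorial one (-0.57, standard error 0.10, edgeR adjusted p = 0.000208). Ube4b, which extends ubiquitin chains, was at 237, 351 and 483 CPM against 376, 507 and 756 CPM. Ppt2, a lysosomal thioesterase, had the largest fall of the 12, from 39.8, 68.6 and 171 CPM in equatorial to 12.4, 30.5 and 49.8 CPM in ipsilateral embryos (-1.34, standard error 0.23, edgeR adjusted p = 0.000235). Phc2, a Polycomb subunit, was at 81.6, 193 and 282 CPM against 192, 309 and 592 CPM, with wider overlap, since 10 ipsilateral embryos were below all equatorial ones (-0.85, standard error 0.15, edgeR adjusted p = 0.00021). Nr6a1, a nuclear receptor expressed in germ cells and early embryos, overlapped further still, at 177, 285 and 445 CPM against 230, 463 and 868 CPM (-0.72, standard error 0.13, edgeR adjusted p = 0.000367). The others were Bri3 (-0.90), Smco4 (-0.95), Ddb1 (-0.67), Fam241b (-0.64), N4bp1 (-0.65) and Wwc2, a regulator of the Hippo pathway (-0.45).

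**Figure D3:**
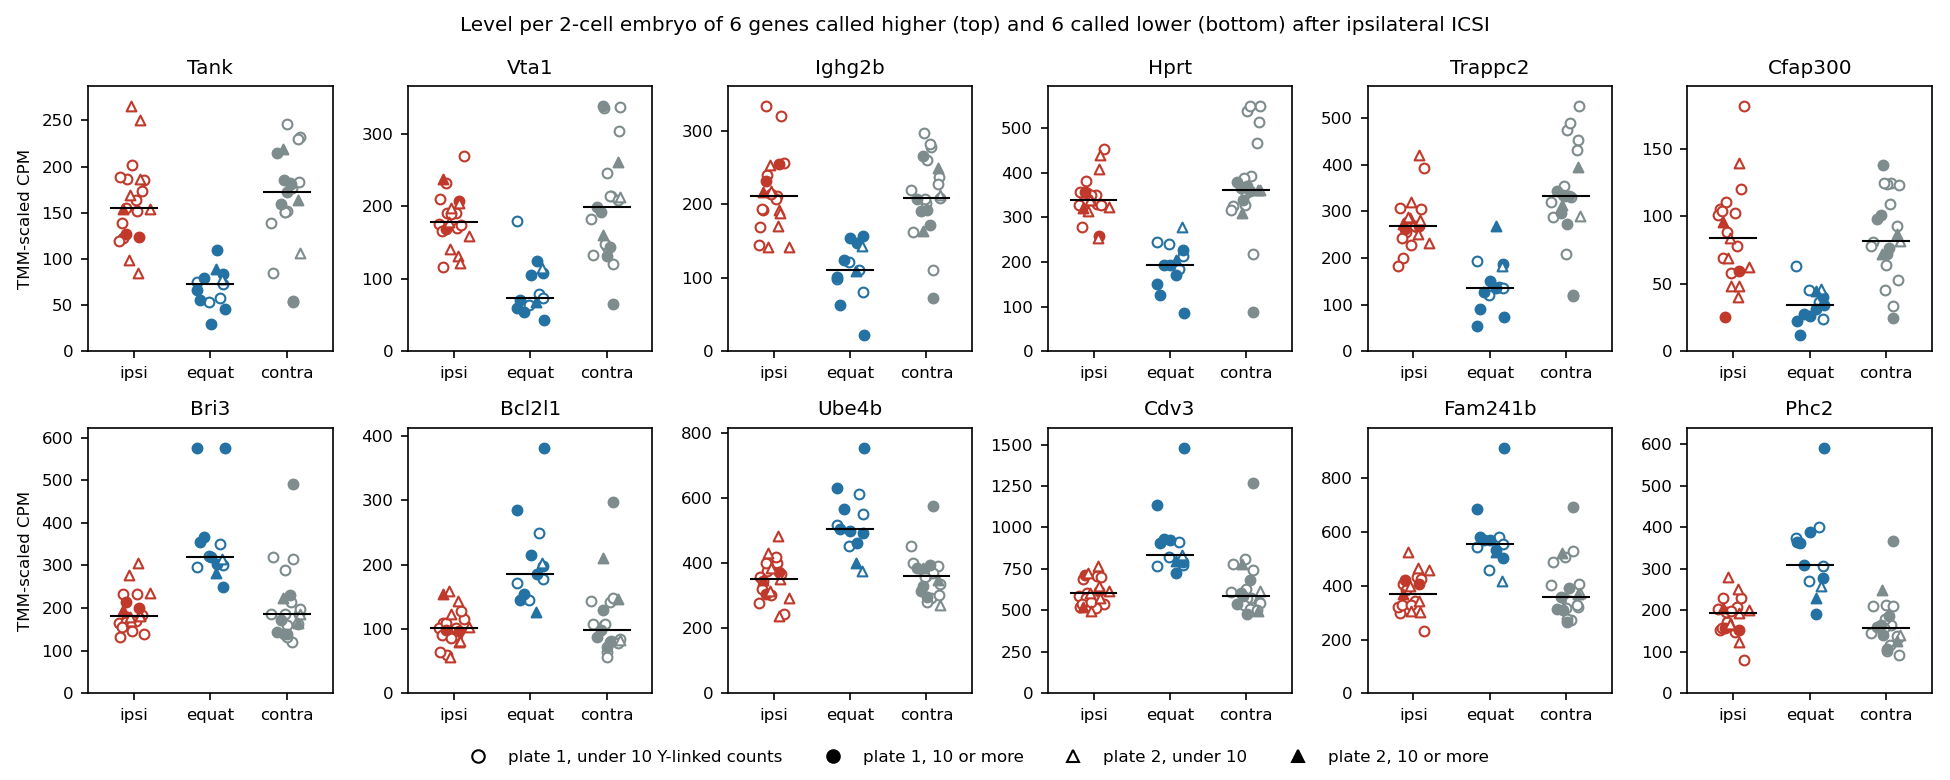
Level in CPM of 6 higher genes (top) and 6 lower genes (bottom) in each 2-cell embryo of the ipsilateral, equatorial and contralateral groups, with filled symbols for embryos with 10 or more Y-linked counts, circles for plate 1, triangles for plate 2 and bars for medians. Tank has medians of 155 and 73.2 CPM in the ipsilateral and equatorial groups, and Bcl2l1 has 101.9 and 186 CPM.

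Adding depth to the model left mainly higher genes. With the log2 total count as a covariate 177 of the 874 genes were called, with detected genes 80, and with both 58. Over all genes tested, 61 were called with both covariates (0.464%), 60 of them higher (0.457%). All 451 higher and all 423 lower genes kept their sign in each of these fits. The median log2 fold change of the higher genes moved from 0.66 to 0.57 with both covariates and that of the lower genes from -0.60 to -0.44. Depth went with the group, so by the design alone the covariates widened the standard error of the contrast by a factor of 1.17. Fitted standard errors went both ways, from 0.17 to 0.20 for Tank and from 0.096 to 0.086 for Cdv3. Before adjustment, 411 of the 451 higher and 318 of the 423 lower genes had a p under 0.05 with both covariates, against 12.6% of all genes tested. The 874 genes were picked by their p in these same embryos, so kept signs and high shares are partly built in. With the log2 total count alone all 12 lower genes named above stayed called. With detected genes alone Bcl2l1, Ube4b, Phc2, Nr6a1 and N4bp1 did. With both covariates the 12 higher genes named above all remained called, and the 12 lower genes did not. Bri3 moved from -0.90 to -0.45 (edgeR adjusted p = 0.0805), Bcl2l1 from -1.04 to -0.72 (edgeR adjusted p = 0.051) and Cdv3 from -0.57 to -0.28 (edgeR adjusted p = 0.103). Tank moved from 1.20 to 1.06 (edgeR adjusted p = 0.00864) and Mad2l1 stayed at 0.65 (edgeR adjusted p = 0.0175).

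The 58 genes that remained called were 57 higher genes and 1 lower gene. The latter was Med25, a subunit of the Mediator complex, named here after its value was seen, with a log2 fold change of -0.66 that became -0.72 with both covariates (edgeR adjusted p = 0.0434). Of the 58, 54 were called in all 3 depth models, 7 were X-linked and 3 lay on the mitochondrial genome. A term for Y-linked reads in place of the depth covariates left 51 of the 58 called. With that term and both depth covariates 2 were. Without embryo 36, 77 genes were called both with and without the covariates, 71 of them higher, and without embryo 67, 244 were, 192 of them higher. In each case 57 of the 58 were among them. The number called with both covariates varied between settings. Fitting the ipsilateral and equatorial embryos alone, or embryos with a mitochondrial share at or under 2%, left 0 of the called genes called with both covariates by edgeR. In these fits 57 and 58 of the 58 had an unadjusted p under 0.05. The 58 were picked by their p in embryos that these fits share. Such overlaps, also those without embryo 36 or 67, are therefore partly built in. Sister a left 2, and DESeq2 called 307 with both covariates, 232 of them higher. Several of the 58 had larger fold changes with the covariates than without. Scoc, a coiled-coil protein of the Golgi (chr8:83430084-83458391), was at 240, 288 and 367 CPM against 124.7, 220 and 290 CPM. Its log2 fold change was 0.48 without and 0.54 with both covariates (standard error 0.10, edgeR adjusted p = 0.00864). Cnot7, a catalytic subunit of the CCR4-NOT deadenylase that shortens poly(A) tails, was at 592, 808 and 1052 CPM against 513, 579 and 784 CPM, with 12 ipsilateral embryos above all equatorial ones (0.38, then 0.42, edgeR adjusted p = 0.027). The small GTPases Rap1a and Rap1b, which act in cell adhesion, moved from 0.50 to 0.58 and from 0.29 to 0.39. Esco1, the acetyltransferase that stabilizes cohesin on chromosomes, moved from 0.33 to 0.44, and Nme7, a kinase of the centrosome, from 0.85 to 0.98. With an offset per embryo for GC content in place of the covariates, 41 of the 58 were called. Nme7 (0.81) was among them, whereas Rap1a (0.27), Rap1b (0.07) and Esco1 (0.09) were not.

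The 58 also included Cenpn and Nuf2. Cenpn, which binds centromeric nucleosomes, was at 467, 604 and 863 CPM against 307, 422 and 552 CPM, with 16 ipsilateral embryos above every equatorial one (0.55, then 0.53, edgeR adjusted p = 0.024). Nuf2, which links kinetochores to microtubules, was at 207, 318 and 422 CPM against 152, 210 and 310 CPM (0.58, then 0.53, edgeR adjusted p = 0.0466). Il7, a cytokine gene, Oog3, an oocyte gene of the oogenesin family, Tex11, an X-linked gene of meiotic recombination, and the zinc-finger gene Zfp616 had log2 fold changes of 0.47, 0.39, 0.93 and 1.09 with both covariates. Tusc3, a subunit of the oligosaccharyltransferase of the endoplasmic reticulum, had 0.74. With the offset for GC content Il7 (0.14) and Oog3 (0.14) were not called, while Tex11 (0.66) and Zfp616 (0.81) were.

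The lower genes included ones whose fold change shrank with the covariates. Ppp4r2, a regulatory subunit of protein phosphatase 4, moved from -0.33 to -0.08 (edgeR adjusted p = 0.708) and Ube2d2a, a ubiquitin-conjugating enzyme, from -0.42 to -0.13 (edgeR adjusted p = 0.504). Zranb1, a deubiquitinase, moved from -0.49 to -0.26, Khsrp, an RNA-binding protein of mRNA decay, from -0.69 to -0.37, Fbxl14, an F-box protein, from -0.996 to -0.50 and Zfp703 from -0.87 to -0.43. These 6 were the genes with the smallest p in the fit with plate among those with an unadjusted p above 0.05 with both covariates.

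**Figure D4:**
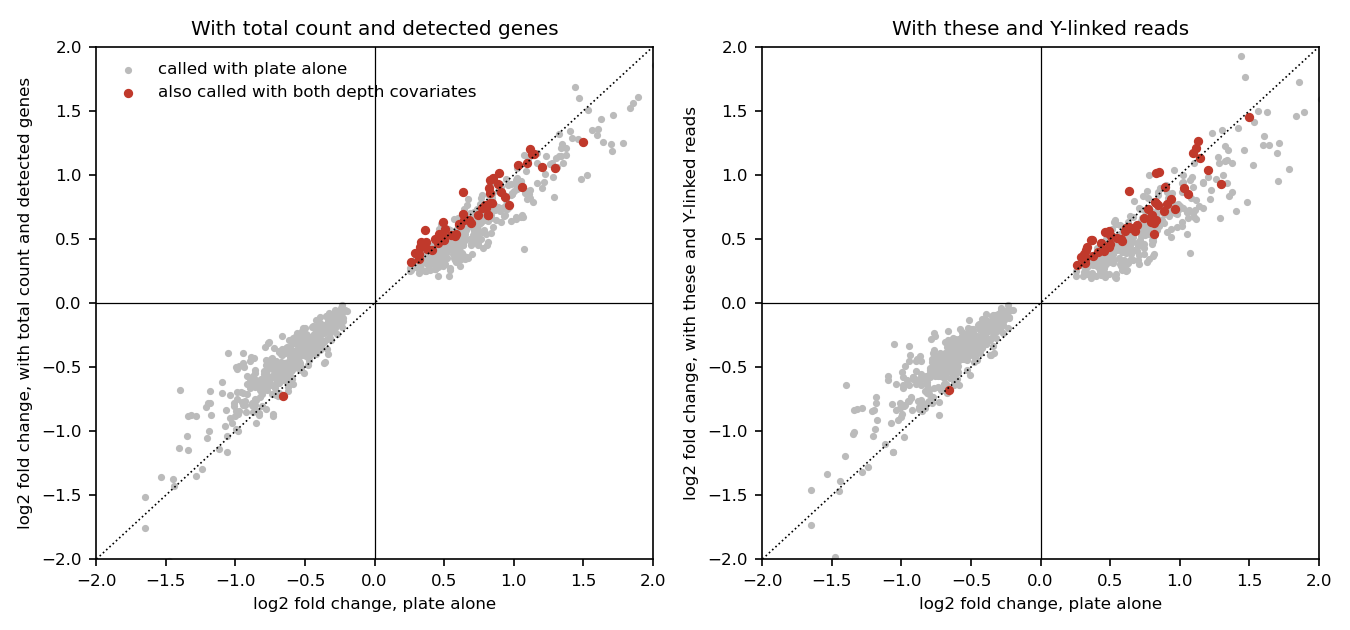
Log2 fold change, ipsilateral minus equatorial, of the 874 called genes with plate alone (horizontal axis) and with the log2 total count and detected genes added (vertical axis), with the genes that remained called in red, and in the second panel with a term for Y-linked reads as well. Both panels show 847 genes, and 27 lie beyond the axes of 1 or both. Higher genes lie close to the diagonal, with medians of 0.66 and 0.57, while lower genes lie between the diagonal and 0, with medians of -0.60 and -0.44.

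Fewer genes were called with a term for Y-linked reads in the model. With this term, chosen after the data were seen, 296 genes were called (2.25%), of which 172 were higher (1.31%) and the rest lower. All 24 genes with the smallest p in either direction named above stayed among them. Together with both depth covariates 2 genes were called (0.0152%), Scoc (0.55, edgeR adjusted p = 0.044) and Tank (1.04, edgeR adjusted p = 0.044), and 1311 genes (9.98%) had an unadjusted p under 0.05. The latter included all 58 genes above and 623 of the 874, which were picked by their p in the same embryos. By the design alone the standard error of the contrast was then wider by a factor of 1.22. The medians of the 451 and 423 genes were 0.53 and -0.41 in this fit, and each gene kept its sign. In the embryos without Y-linked reads alone (18 ipsilateral, 5 equatorial), 0.848% of the genes tested were called, 96 genes higher (0.646%) and 30 lower. There too all 874 kept their sign, with medians of 0.67 and -0.53, but these embryos were among those that picked the genes.

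Genes of cell division were higher in several cases. Of 78 spindle, kinetochore and midbody genes tested, 8 were higher (10.3%, against 3.43% of all genes tested), namely Anln, Ccnb1, Cep55, Ckap5, Kif18a, Mad2l1, Nuf2 and Plk4. Espl1, the separase, and Incenp, a subunit of the chromosomal passenger complex, were lower. Ckap5, a microtubule polymerase, was higher by 0.51 and Kif18a, a kinesin that limits chromosome movement, by 0.53. The median of the 78 was 0.04 (-0.01 with an offset per embryo for GC content, the GC offset, with 4 higher and 1 lower), and 2 of them remained called with both depth covariates and 5 with the term for Y-linked reads. Of 52 cyclins, kinases and subunits of the anaphase-promoting complex, 6 were higher (11.5%) and 2 lower (3.85%, against 3.22% of all genes tested), with a median of 0.14. The higher ones were Ccnb1, Ccnb2 and Ccnb3, the B-type cyclins that drive entry into mitosis, Mastl and Arpp19, which restrain the phosphatase opposing them, and Anapc10. The lower ones were Ccno and Fzr1, an activator of the anaphase-promoting complex. Ccnb2 was at 146, 179 and 307 CPM against 58.3, 113 and 188 CPM, and 11 of 13 equatorial embryos lay below the lowest ipsilateral one (0.70, standard error 0.14, edgeR adjusted p = 0.00136). With both depth covariates 0 of these 52 were called by edgeR, Ccnb2 having 0.59 and an edgeR adjusted p = 0.0805, and with the term for Y-linked reads 2 were. With the GC offset 2 of the 52 were higher and 0 lower.

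Genes of membrane traffic were called in both directions, and the shares are to be read against 3.43% higher and 3.22% lower over all genes tested. Among 59 genes of COPII, COPI and TRAPP vesicles, 5 were higher (8.47%; Trappc2, Trappc1, Sar1b, Sec13 and Ergic2) and 2 lower (Arf3 and Kdelr1, the receptor that returns proteins to the endoplasmic reticulum). Trappc1 was at 120.6, 153 and 230 CPM against 4.37, 104 and 146 CPM, with 13 ipsilateral embryos above all equatorial ones (0.66, edgeR adjusted p = 0.0124). Among 62 genes of endosomal sorting, 5 were higher (8.06%) and 0 lower. These were Vta1, Tsg101 (0.74) and Chmp1b of the ESCRT machinery, Vps35 of the retromer (0.55), and Ap3m1 of an adaptor of vesicle coats (0.49). Of 41 Rab GTPases, which direct vesicles, Rab7, Rab9, Rab11a and Rab18 were higher (9.76%) and Rab3d (-0.57) was lower (2.44%). With the GC offset 2 were higher and 3 lower. Rab9 is X-linked and was at 67.4, 115.9 and 179 CPM against 3.79, 53.5 and 113 CPM (0.98, edgeR adjusted p = 0.00506). Of 38 SNARE genes 2 were higher (5.26%; Snap23 and Scfd1), of 41 Golgi genes 1 (2.44%; Golph3l), and of 56 lysosome and autophagy genes 0, with Ulk1, a kinase that starts autophagy, lower (-0.88). Genes of the endoplasmic reticulum were balanced, with Emc2, Ssr4 and Tusc3 higher and Canx, Ern1 and Srp54a lower among 68 (4.41% each). The list medians lay between -0.11 and 0.17, and with both depth covariates Trappc2, Vta1 and Tusc3 were called. With the GC offset 3 endosomal sorting genes were higher and 1 lower, and 0 SNARE genes were called by edgeR.

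Of the genes of protein synthesis, called ribosomal protein genes were lower and called translation factors higher, while the medians of both lists were below 0 and the difference between the lists was not tested. Of 80 cytosolic ribosomal protein genes, 10 were lower (12.5%, against 3.22% of all genes tested) and 0 higher. Rpsa had the lowest fold change of those named by the rule, at 36.3, 113 and 199 CPM against 144, 170 and 324 CPM, with 18 ipsilateral embryos below every equatorial one (-0.72, standard error 0.19, edgeR adjusted p = 0.0118). Rplp1 (-0.64), Rps12 (-0.61) and Rps24 (-0.44) were lower as well. Processed copies of ribosomal protein genes elsewhere in the genome could take part of these reads, so the values are uncertain. The median of the 80 was -0.07, and 0.04 with both depth covariates, where 0 were called by edgeR. With the term for Y-linked reads 3 were lower, and with an offset for GC content 5 were lower and 2 higher. With offsets for GC content and length 18 were lower and 0 higher, with a median of -0.26. Of 51 initiation and elongation factors, 4 were higher (7.84%, against 3.43% of all genes tested) and 0 lower: Eif2b1, Eif2s1 (0.53), the cap-binding protein Eif4e (0.32) and Eef1e1 (0.81). Their median was -0.11, and at an unadjusted p under 0.05 10 were higher and 12 lower. With the GC offset 3 were called higher and 3 lower, and with a minimum of 50 counts in 13 embryos 4 and 3.

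Among regulators of the maternal mRNA store, 2 of 46 were higher (4.35%) and 5 lower (10.9%), against 3.43% and 3.22% of all genes tested. With the GC offset 0 were higher and 6 lower. Cnot7 and Dazl, an RNA-binding protein of germ cells, were higher. The lower genes were Tob2 (-0.78), which recruits CCR4-NOT, the poly(A)-binding protein Pabpc1 (-0.58), the poly(A) polymerase Tent4a (-0.32), Eif4e1b, the oocyte form of the cap-binding protein, and Ythdf1, a reader of methylated RNA. Of 12 genes of the subcortical maternal complex, a structure of the oocyte cortex needed for cleavage, Nlrp9a (0.60) and Nlrp9c (0.45) were higher (16.7%). Zbed3 was lower (8.33%). Nlrp9c was at 636, 780 and 1126 CPM against 444, 529 and 1015 CPM, and 10 equatorial embryos lay below the lowest ipsilateral one. The Nlrp9 genes resemble each other, and reads may be shared between them. Zbed3 was at 2168 CPM or more in all ipsilateral embryos and had medians of 2877 and 3589 CPM, and 15 ipsilateral embryos were below the lowest equatorial one (-0.33, standard error 0.07, edgeR adjusted p = 0.00219). With both depth covariates it had -0.14, and 0 of the 12 genes were called by edgeR. With the term for Y-linked reads 2 of the 12 were higher and 1 lower, and with the GC offset 1 was higher and 0 lower.

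Genes that mark the activation of the embryonic genome were higher where they were called in the fit with plate. Of 33 tested, 4 were higher (12.1%, against 3.43% of all genes tested) and 0 lower, with a median of 0.17. Dppa2, a factor that opens the genes of the 2-cell programme, was at 105.8, 159 and 261 CPM against 48.5, 105.2 and 180 CPM (0.58, edgeR adjusted p = 0.0183). Zscan4d had 0.85 (edgeR adjusted p = 0.0415) and Zscan4f 1.86 (edgeR adjusted p = 0.0123), but these are near-identical copies and their split is uncertain. Arg2, an arginase, had 0.65 (edgeR adjusted p = 0.0479). With both depth covariates 0 of the 33 were called by edgeR, and with the term for Y-linked reads 1. With the GC offset 1 was higher and 0 lower, and with offsets for GC content and length 1 was higher and 2 lower.

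Chromatin genes were called in both directions. Of 48 genes of DNA methylation and Polycomb 7 were lower (14.6%, against 3.22% of all genes tested): Cbx2 and Phc2 of Polycomb complex 1, Suz12 of complex 2, Cbx3 of heterochromatin, Kdm6b, which removes the Polycomb mark (-0.80), and the histone methyltransferases Kmt2b and Kmt2d. The 2 higher ones were Rbbp7, which is X-linked (0.41), and Pcgf1 (0.38). The median of the list was 0.00, and with the GC offset 3 were lower and 1 was higher. Of 27 histone genes and chaperones, 3 were higher (11.1%) and 2 lower (7.41%), against 3.43% and 3.22% of all genes tested. Asf1a (0.84) and Asf1b (0.45), which deliver histones H3 and H4, and H1foo (0.34) were higher. The somatic linker histone gene Hist1h1a (-1.20) and Nap1l1 were lower. Asf1a was at 123, 192 and 369 CPM against 41.04, 112 and 243 CPM, with 8 equatorial embryos below all ipsilateral ones. Of 52 genes of nuclear pores and import 5 were higher and 5 lower (9.62% each), Nup37 having 0.84 and Nup50 -0.46. With both depth covariates 0 genes of these 3 lists were called by edgeR.

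Of the 13 protein genes of the mitochondrial genome 3 were higher (23.1%, against 3.43% of all genes tested), with a median of 0.15 over the 13. All 3 stayed so with both depth covariates. The mitochondrial share of counts was 1.51% ± 0.225 (SD, n = 21) in ipsilateral and 1.31% ± 0.237 (SD, n = 13) in equatorial embryos (permutation test, adjusted p = 0.028 over 10 tests of depth). mt-Atp8, a subunit of ATP synthase, was at 139, 250 and 368 CPM against 64.6, 130 and 210 CPM, with 14 ipsilateral embryos above every equatorial one (0.90, then 1.02, edgeR adjusted p = 0.00864). mt-Cytb of complex III (0.49, then 0.63) and mt-Atp6 (0.36, then 0.57) overlapped more, with 6 ipsilateral embryos above all equatorial ones in each. With the term for Y-linked reads mt-Atp8 alone was called, with an offset for GC content 1 of the 13 was higher and 2 were lower, and with offsets for GC content and length 0 were higher and 8 lower. Of 75 nuclear-encoded subunits of the chain 0 were called by edgeR (6 with an unadjusted p under 0.05), with a median of 0.14, and of 77 mitochondrial ribosomal proteins 2 were higher.

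The remaining functions had few calls or calls in both directions. Their shares are to be read against 3.43% higher and 3.22% lower over all genes tested. Of 55 heat shock and stress genes 6 were lower (10.9%) and 2 higher (3.64%). The lower ones included Hsp90ab1 (-0.41), Hsp90aa1 (-0.28) and Atf4, a transcription factor of the stress response (-0.56). Of 26 genes of the p53 pathway 3 were lower (11.5%) and 2 higher (7.69%). Of 39 proteasome genes 1 was lower (2.56%) and 2 were higher (5.13%), and of 30 ubiquitin ligase genes 3 and 3 (10% each). Splicing factors had 4 lower (5.26%) and 0 higher of 76, and excision and mismatch repair 3 lower (7.14%) and 0 higher of 42. Double-strand break repair had 2 higher of 54 (3.70%; Dclre1a and Wrn), and replication 1 in each direction of 55 (1.82% each; Tipin and Dbf4). Of 31 NF-kB and innate signalling genes, Tank was higher and Tab2 (-0.52) lower (3.23% each). With the GC offset double-strand break repair had 0 higher and 3 lower, and heat shock and stress 0 and 4. The p53 pathway then had 0 higher and 1 lower, ubiquitin ligases 0 and 2, and splicing factors 0 and 5. The numbers of the other lists of this paragraph stayed. With both depth covariates only Tank and 1 ubiquitin ligase gene of these lists were called, and the latter was not called in the fit with plate.

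X-linked genes were higher or not called. Of 462 tested 40 were higher (8.66%) and 0 lower, and the median log2 fold change of the 462 was 0.44, against 0.00 over all other genes. Without equatorial embryo 67, 38 of 473 were higher and 5 lower, with a median of 0.35. The median stayed at 0.40 with both depth covariates, was 0.25 with the term for Y-linked reads and 0.24 with all 3 terms. With the term for Y-linked reads 12 were higher, and with all 3 terms 0 were called by edgeR. In embryos without Y-linked reads the median was 0.17, against 0.04 over the other genes, and 4 were called higher and 1, Ubqln2 (-0.78), lower. All 40 genes above had a positive value there, 33 with an unadjusted p under 0.05, but these embryos were among those in which the 40 were called. The 4 were Hprt (0.60), Trappc2 (0.84), Prr32 (2.03) and Tex11 (0.76). By DESeq2 65 were higher and 3 lower.

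Further X-linked genes, named after their values were seen, were Taf9b, a subunit of the general transcription factor TFIID, at 132, 203 and 332 CPM against 67.2, 121.3 and 194 CPM (0.74, edgeR adjusted p = 0.000528), and Ube2a, a ubiquitin-conjugating enzyme, at 118.5, 249 and 361 CPM against 28.4, 153 and 234 CPM (0.80, edgeR adjusted p = 0.0012). Both were also called with both depth covariates and, in a separate fit, with the term for Y-linked reads. Genes called by the term for Y-linked reads were mostly outside the 874. The term itself called 27 genes (0.205%), of which 24 X-linked ones were lower in embryos with Y-linked reads and 3 were Y-linked, and only 1 of the 27 was among the 874. Of these, Bex2 (-5.74), Fthl17f (-4.34) and Ogt, the enzyme that adds N-acetylglucosamine to nuclear proteins (-1.22), did not pass the test between ipsilateral and equatorial embryos. Over all X-linked genes tested the term had a median log2 fold change of -0.42, against 0.01 over the other genes. The part of Y-linked reads in the X-linked differences between groups was not tested beyond these fits.

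The called genes also differed in base composition. The median GC content of transcripts was 43.2% in the higher, 52.9% in the lower and 48.5% in all genes tested, and 41.5% in the 58 that remained called. Median exonic length was 3286 bases in the higher and 5325 in the lower genes, against 4193 in all. Over deciles of GC content, the median log2 fold change fell from 0.27 in the lowest to -0.36 in the highest. The share of genes called higher fell from 9.90% to 0.457%, and that called lower rose from 1.37% to 6.85%. With both depth covariates the medians of the end deciles were 0.24 and -0.34, and with the term for Y-linked reads as well 0.20 and -0.32. Across 5970 genes with an average log2 CPM above 5, the Spearman coefficient of GC content against the log2 fold change was -0.38, as a description of genes that share their libraries. X-linked genes had a higher median than the other genes in each decile, the highest decile holding 12 of them.

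The same difference stood in whole libraries. The mean GC content of genes, weighted by their counts, was 46.7% ± 0.177 (SD, n = 21) in ipsilateral and 47.1% ± 0.190 (SD, n = 13) in equatorial embryos (permutation test, p = 2.0e-05, adjusted p = 6.0e-05). It was 46.7% and 47.1% also among embryos without Y-linked reads (exact permutation test, p = 2.97e-05) and among those with them (exact permutation test, p = 0.0303, adjusted p = 0.0346). With an offset per embryo for GC content, 660 genes were called, 338 higher and 322 lower, 444 of them among the 874. With it Mad2l1 went from 0.65 to 0.44 and Scoc from 0.48 to 0.19 (edgeR adjusted p = 0.174), while Eif2b1 went from 0.94 to 0.99 and Cdv3 from -0.57 to -0.63. The part of base composition in the differences between groups was not tested beyond these fits.

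**Figure D5:**
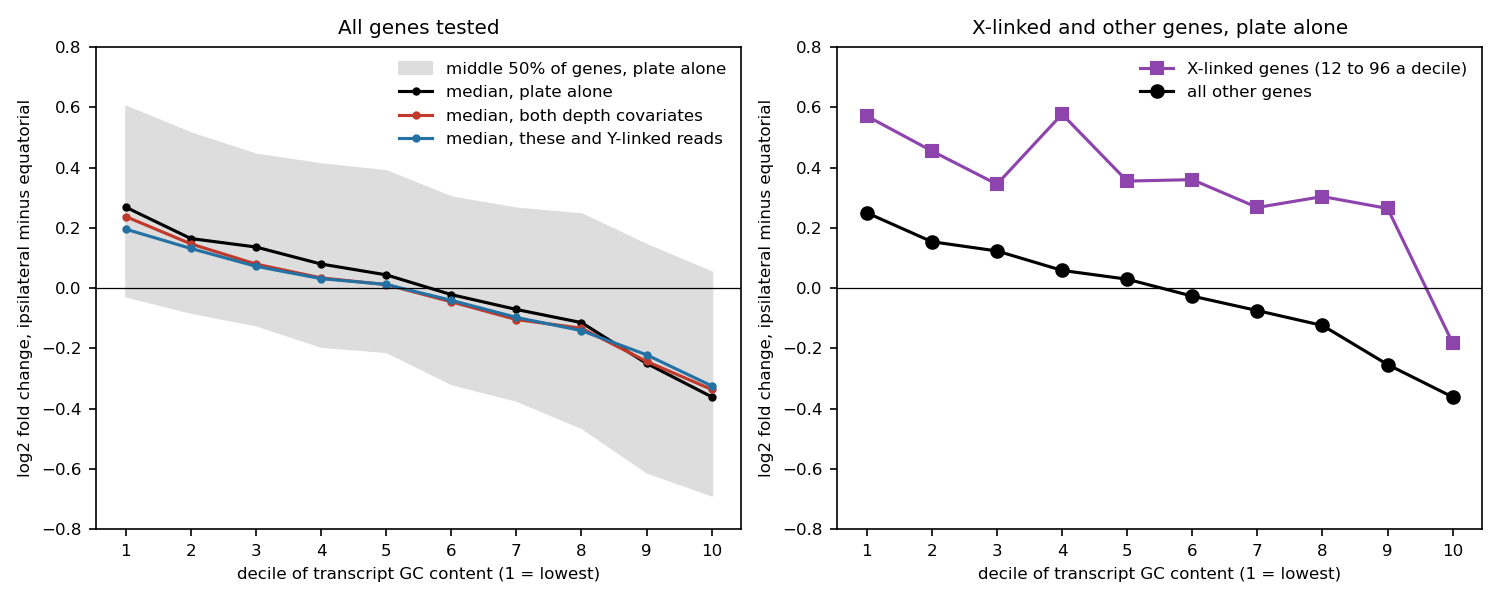
Median log2 fold change, ipsilateral minus equatorial, in deciles of transcript GC content, for all genes in 3 models (first panel, grey band for the middle 50% of genes) and for X-linked genes and all others (second panel). The median of all genes falls from 0.27 in the lowest to -0.36 in the highest decile, and the X-linked median lies above that of the other genes in each.

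The sister libraries, fitted separately, gave fewer calls with the same signs. These are separate libraries of the same embryos, not further embryos. The sister with the letter a gave 345 genes (3.07%), of which 315 were among the 874 (91.3% of its calls and 36.04% of the 874). The sister with the letter b gave 135 (1.19%), of which 92.6% were among them (14.3% of the 874). In both libraries together 75 genes were called, 21.7% of the former and 55.6% of the latter, all in the same direction, and 28 of these were among the 58. All 434 higher and 422 lower genes that could be tested kept their sign in each sister. The 874 genes were picked from the added counts of both sisters, so the overlaps and the signs are partly built in.

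Ipsilateral and contralateral embryos differed in 0 of the same 13141 genes by edgeR (0%), with 555 (4.22%) before adjustment. Tank had a median of 172 CPM in contralateral embryos, Vta1 199, Mad2l1 740.3, Bcl2l1 97.9 and Cdv3 588 CPM. Y-linked reads were found in 8 of the 21 contralateral embryos (38.1%), whose share of counts on X-linked genes was 3.49% ± 0.325 (SD, n = 21).

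Blastocysts of the same groups, which are other embryos, gave 0 calls by edgeR between ipsilateral and equatorial ICSI. In twin blastocysts, each grown from 1 blastomere and added over the pair (7 against 6), 426 of 10995 genes had an unadjusted p under 0.05, and in intact blastocysts (8 against 12) 338 of 9165. Of the genes higher at the 2-cell stage, 42.4% of 309 tested were higher in ipsilateral twins, with a median log2 fold change of -0.03, and 55.5% of 281 in intact blastocysts (0.06). Of the genes lower at the 2-cell stage, 55.01% of 389 were higher in twins (0.02) and 30.9% of 369 in intact blastocysts (-0.15). Over all genes tested 50.7% and 46.7% were higher. Y-linked reads, by the same limit, were found in 4 of 7 ipsilateral and 4 of 6 equatorial twin pairs and in 2 of 8 and 6 of 12 intact blastocysts.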

How the data were processed

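Counts per gene and blastomere were deposited by the authors as whole numbers without normalization. They trimmed reads with Trimmomatic 039, reduced the paired-end libraries to the first 100 bases of the first read, and aligned them without strand to GRCm38 (mm10, GENCODE M23) with STAR 2.7.10b (versions from the submitters' processing notes and the study's methods). In each of 4035625 entries the deposited count equals that of the matrix with identical reads collapsed. The libraries carry no molecular identifiers, so counts are of reads rather than of molecules. By its name that matrix counts reads with the same ends once. If so, the total count depends on the number of distinct reads as well as on sequencing depth. Columns of the table that match no labelled sample numbered 0.

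Groups, sister letters, embryo numbers and plates came from the sample labels. Counts of both sisters were added for embryos with at least 9500 detected genes in each blastomere. The added totals of 1255481 to 3976094 counts set the precision. edgeR 4.0.16 (filterByExpr, TMM, robust quasi-likelihood fit, Benjamini-Hochberg adjustment, threshold 0.05) compared ipsilateral with equatorial embryos within a fit of the 55 embryos with plate as covariate. All p-values named as edgeR's come from this test. CPM use the TMM factors. Exonic lengths, GC content and coordinates are from GENCODE M21 of GRCm38, with a length for 32235 of 32285 genes. Measures of depth, X-linked share and GC content were compared by 2-sided permutation tests on the difference of means, with 100000 resamples or exact enumeration.

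Alternatives were the log2 total count, detected genes or both as covariates, thinning, no plate term, each plate, only the 2 groups, RLE factors, DESeq2 1.42.0, other filters, a mitochondrial limit of 2%, all pairs, each sister, each embryo left out, and a Wilcoxon test on added TPM or CPM. The study ran this test on added TPM of fewer genes at a p under 0.05. Here its p was adjusted over all genes tested. The terms for Y-linked reads, the GC and length offsets (lowess span 0.3), and their combinations with the depth covariates were added after the data were seen. The members, the function lists and the tests were chosen with earlier results of these data known. Named genes were those with official symbols that were the 12 higher and 12 lower with the smallest p, the 20 with the smallest p with both depth covariates among those also called without, 6 with the smallest p whose unadjusted p exceeded 0.05 with both, up to 4 of each list by p, the most abundant markers, and genes named in earlier text on these data. The scripts were tested on simulated data. One item of the study is not reported here. Software was R 4.3.3, limma 3.58.1, Python 3.11.15, pandas 2.3.3, scipy 1.17.1 and matplotlib 3.10.9.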

Additional observations from a re-analysis of the deposited data

Results flagged for a closer look

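Groups of 4 to 10 embryos, made from site of ICSI with plate or with Y-linked reads, were searched for an embryo far from the rest. Each measure within a set of embryos counted as 1 group, and 2 of 15 had one. Groups that share embryos are not independent. Chance alone flags about 1 in 20 such groups. The mitochondrial share of counts was 2.03% in ipsilateral embryo 56, against 1.26% to 1.53% in the other 7 ipsilateral embryos of plate 2. Among the equatorial embryos with Y-linked reads, embryo 67 had 1.65% of its counts on X-linked genes, against 2.41% to 3.01% in the other 7. The latter is also the embryo with the most Y-linked counts (333) and the one without which the number of called genes was highest (1188).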

How the results depend on the processing

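Of the 874 called genes, 451 higher and 423 lower, 58 also held with both depth covariates. These 4 counts (called, higher, lower, held) are given here under other settings as a percentage of their values with plate alone. Held does not mean the same in every setting. Where depth covariates are part of the setting, held counts those of the 874 genes that were called in that fit. Elsewhere it counts the genes called in that setting and called again with both depth covariates added. For thinned blastomeres, whose totals were equal, detected genes alone were added. With the log2 total count as a covariate they became 21.1%, 33.5%, 7.80% and 305%, with detected genes the first 3 became 9.61%, 15.5% and 3.31%, and with both 6.98%, 13.3% and 0.236%. Held genes were 162% with thinned blastomeres, 167% on plate 1 alone and 509% with all pairs, and all 4 counts were 0 on plate 2 alone. The ipsilateral and equatorial embryos alone gave 0 held (smallest edgeR adjusted p with both covariates 0.0519, 1145 genes unadjusted). DESeq2 gave 158% higher and 441% held. Every gene with a count gave 298%, 342%, 251% and 1229%. The mitochondrial limit gave 66.1% higher and 0 held (smallest edgeR adjusted p 0.239, 973 unadjusted). Sister a gave 39.5%, 39.2%, 39.7% and 3.45%, and sister b 15.4%, 18.8%, 11.8% and 41.4%. The Wilcoxon test called 156% on TPM, with 182% lower, and 157% on CPM, with 178% higher. Leaving out 1 embryo at a time gave 69.8% to 135.9% called, 72.5% to 140.8% higher and 61.7% to 130.7% lower, the ends coming from equatorial embryos 36, 39 and 67.

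Among settings chosen after the data were seen, the term for Y-linked reads gave 33.9%, 38.1%, 29.3% and 3.45%, and with both depth covariates 0.229%, 0.443%, 0 and 3.45%. Embryos without Y-linked reads gave 14.4%, 21.3%, 7.09% and 191%, and with both depth covariates 28.4%, 44.1%, 11.6% and 269%. Plate 1 with both depth covariates gave 12.01%, 20.8% and 2.6005%. The GC offset gave 43.1% held, the GC and length offsets 54.3%, 48.1%, 60.99% and 27.6%, and the term for Y-linked reads with the GC offset and both depth covariates 0.114%, 0.222%, 0 and 1.72% (Dazap2 alone, 1088 unadjusted). The cause of these changes was not tested.

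All named genes that were called kept their direction in the other settings except these, with their log2 fold changes. On plate 2 alone they were Tent4a (0.10), Pabpc1 (0.015), Nlrp9c (-0.10), Eef1e1 (-0.086), Mrpl40 (-0.18), Psmb2 (-0.060), Cand1 (0.040), Golph3l (-0.15), Ap3m1 (-0.091), Rab18 (-0.039), Rab7 (-0.013), Ulk1 (0.23), Anapc10 (-0.045) and Dnajb4 (-0.050). With the GC and length offsets they were mt-Cytb (-0.034), Oog3 (-0.010), mt-Atp6 (-0.29) and Tent4a (0.014), and with the Y-linked term, GC offset and depth covariates Tent4a (0.013), Zbed3 (0.014) and Nup62 (0.089). A difference that was not called is not shown to be absent.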

Other observations

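Genes that differed by Y-linked reads were described over the 55 embryos. Named after their values were seen, Pramel3, Tceal9, Bex2, Zcchc13 and Fthl17c, all X-linked, had fitted log2 fold changes from -8.16 (Zcchc13) to -5.74 (Bex2) in embryos with Y-linked reads against those without. Cox7b, an X-linked subunit of cytochrome c oxidase, was lower there too and had a log2 fold change of 0.72 between ipsilateral and equatorial embryos (edgeR adjusted p = 0.061).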
